A study of Mus musculus with 150 samples.

Results

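The clustered protocadherins were followed in single mouse somatosensory neurons. Members were chosen by symbol alone: every gene of the deposited count table whose name begins with Pcdha, Pcdhb or Pcdhg and goes on as a member of the alpha, beta or gamma array, which gave 57 of 54082 genes. They comprised 11 variable alpha members, 22 beta members, 12 variable members of the gamma A type, 7 of the gamma B type and the 5 C-type members Pcdhac1, Pcdhac2, Pcdhgc3, Pcdhgc4 and Pcdhgc5. A neuron was counted as having a member when the count was above 0 and reached at least 5 CPM (the count scaled to a common library total).

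The study read polyA RNA from 150 neurons, 1 library per cell, made with Smart-seq, which copies full-length transcripts of a single cell. All cells came from CD1 mice (strain #022, Charles River) with no genotype or treatment named in the labels, from 10 litters at postnatal day 4 (33 cells) or day 5 (117 cells). The cells were labelled by the skin they served: 45 were hairy, 1 carried both labels and entered no comparison, and all the others were glabrous (hairless skin). The labels do not say how skin type was assigned, and some litter names join several letters (such as E_F_G), so the number of animals behind a name is unknown. The litter name was taken as the replicate.

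Clustered protocadherins are adhesion proteins of the cadherin family that stand on the neuronal surface and bind their own kind on a facing membrane. In the alpha and gamma arrays each variable exon has its own promoter and is spliced to constant exons shared by the array, whereas each beta gene is a transcript of its own with no constant exon. Many neuron types switch on a few variable promoters, seemingly at random, while C-type promoters are used by whole classes of neurons, and the resulting combination on the surface is known as a basis of self-recognition. Gamma members are known to act in synapse formation and peripheral branching of touch neurons.

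The arrays lie on chromosome 18 (mm10, GENCODE M21 gene models). The sharing of exons bears on every value below: alpha members share 2860 exonic bases, which is 52.8% of the exonic length of Pcdhac1 and 48.6% of that of Pcdhac2, and gamma members share a constant part likewise. Salmon, named in the submitters' processing notes, divides reads from shared exons among the members by estimate, so alpha and gamma counts carry that uncertainty. Beta members share no exonic positions, apart from 455 bases common to the overlapping models of Pcdhb21 and Pcdhb22. Likeness of sequence between members at different positions was not measured, so beta counts may carry such uncertainty too. Pcdha11 has 2 gene models of 1 symbol, and Pcdhgb8 is annotated as a polymorphic pseudogene.

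Total counts ran from 395811 to 1053854 per cell, and detected genes from 4360 to 15865. In 6 cells fewer than 10000 genes were detected, and these had 0, 0, 1, 2, 6 and 9 members. All 8 of the pan-neuronal markers were present in at least 50% of the cells, at a summed level of 8958 CPM (median, range 127 to 12373). Some libraries thus held little RNA of these markers, and they were kept in all comparisons of their groups. All 6 satellite glia markers were also present in at least 50% of the cells, at a summed level of 1021 CPM (median, range 19.2 to 15659), and Schwann cell markers stood at 2185 CPM (median, range 366 to 38795). Glial RNA was thus read in many neuron libraries, and its part in the member counts was not tested. Blood markers stood at 14.9 CPM (median, range 0 to 247269), and their part was not tested either.

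The neurons had a median of 13 members each. The lowest number was 0, the highest 20, and the mean 12.4 ± 3.39 (SD over 150 cells). Variable alpha members contributed a median of 2 (mean 2.15, range 0 to 6), beta members a median of 3 (mean 3.48, range 0 to 9), variable gamma members a median of 3 (mean 3.43, range 0 to 8) and C-type members a median of 4 (mean 3.39, range 0 to 5). A single neuron thus used a small part of each variable array and most of the C-type set.

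The number of variable alpha members was the tightest of the 3 arrays. Exactly 2 were detected in 81 of 150 neurons, 1 in 23, 3 in 31, and 0 in 5. Its variance over neurons was 0.891, against 1.64 for members detected independently of each other at the same shares (the sum of p(1 − p) over members). For beta members the variance was 2.88 against 2.76, and for variable gamma members 2.45 against 2.72. For C-type members it was 0.803 against 0.534. Without the 6 cells of fewer than 10000 detected genes the variances were 0.833 against 1.66 for variable alpha, 2.65 against 2.82 for beta, 2.11 against 2.79 for variable gamma and 0.461 against 0.459 for C-type members, so the excess in C-type and beta numbers went with those 6 cells. These are descriptions of cells that share litters and batches, with no test.

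**Figure D1:**
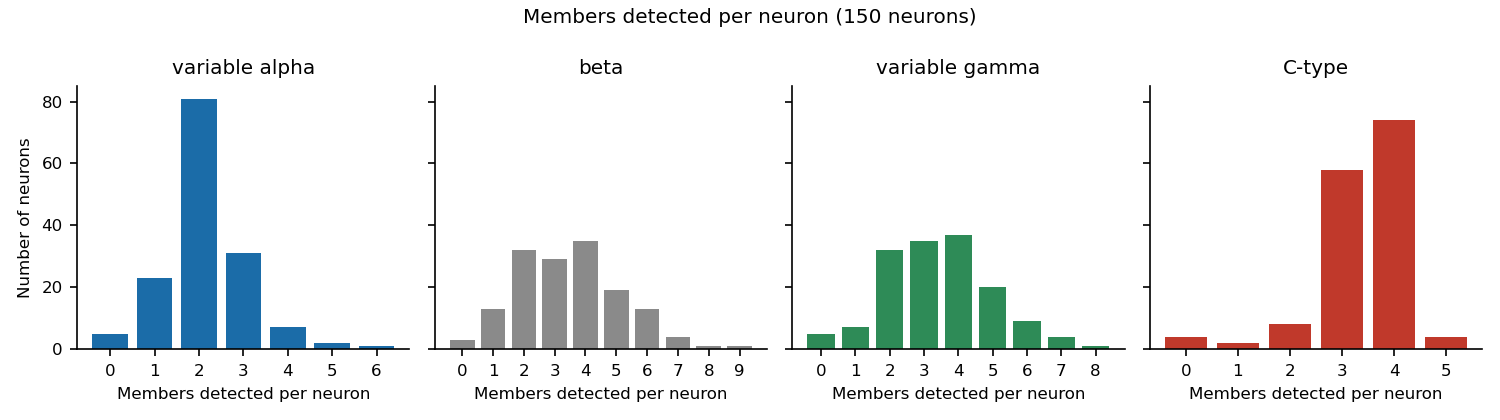
Number of neurons (vertical axis, of 150) by the number of variable alpha, beta, variable gamma and C-type members detected per neuron (horizontal axes). The alpha panel has a single peak of 81 neurons at 2 members, the beta and gamma panels spread from 0 to 9 and 0 to 8, and the C-type panel piles up at 3 and 4.

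The detection threshold set these numbers. With any count above 0 the mean rose to 18.8 members, with a CPM of at least 20 it was 7.18, and with each cell thinned to 390000 counts it was 13.5. The median number of variable alpha members was 3 with any count and 2 with a CPM of at least 20 or after thinning. The variance of that number, against independent members, was 1.65 against 1.99 with any count. It was 0.536 against 1.37 with a CPM of at least 20 and 1.08 against 1.70 after thinning. The gap was thus narrowest with any count. The median of beta members went from 6 with any count to 1 at a CPM of at least 20, and that of variable gamma members did the same. Over cells the number of members went with the number of detected genes (Pearson's r 0.674, Spearman's rho 0.408, n = 150; r 0.417 in the 144 cells with at least 10000 genes), which share library and depth. With total count r was 0.0581.

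Each variable member was present in a minority of neurons. The median variable member was detected in 17.3% of the 150 neurons, with a range from 0 to 35.3%. Among variable alpha members Pcdha12 (53 neurons, 35.3%) and Pcdha3 (44 neurons, 29.3%) were the most frequent, and Pcdha8 (12 neurons) and Pcdha1 (10 neurons) the least.

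Among beta members Pcdhb16 (46 neurons, 30.7%) and Pcdhb17 (45 neurons, 30%), which are neighbours, led. Pcdhb13 was detected in 1 neuron, and Pcdhb1 had no count in any (0 of 150 neurons, which allows a share of up to 2% at 3 neurons and up to 2.43% by the exact Clopper-Pearson interval). In the gamma array Pcdhga12 (48 neurons, 32%) and Pcdhga11 (42 neurons, 28%) were the most frequent A-type members, and Pcdhga9 (23 neurons) and Pcdhga6 (19 neurons) the least. Of the B type, Pcdhgb6 (38 neurons) and Pcdhgb7 (30 neurons) led, whereas Pcdhgb1 was found in 13 neurons and Pcdhgb8, the polymorphic pseudogene, in 5. Pcdha12 and Pcdhga12 are the last variable members before the C-type exons of their arrays.

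**Figure D2:**
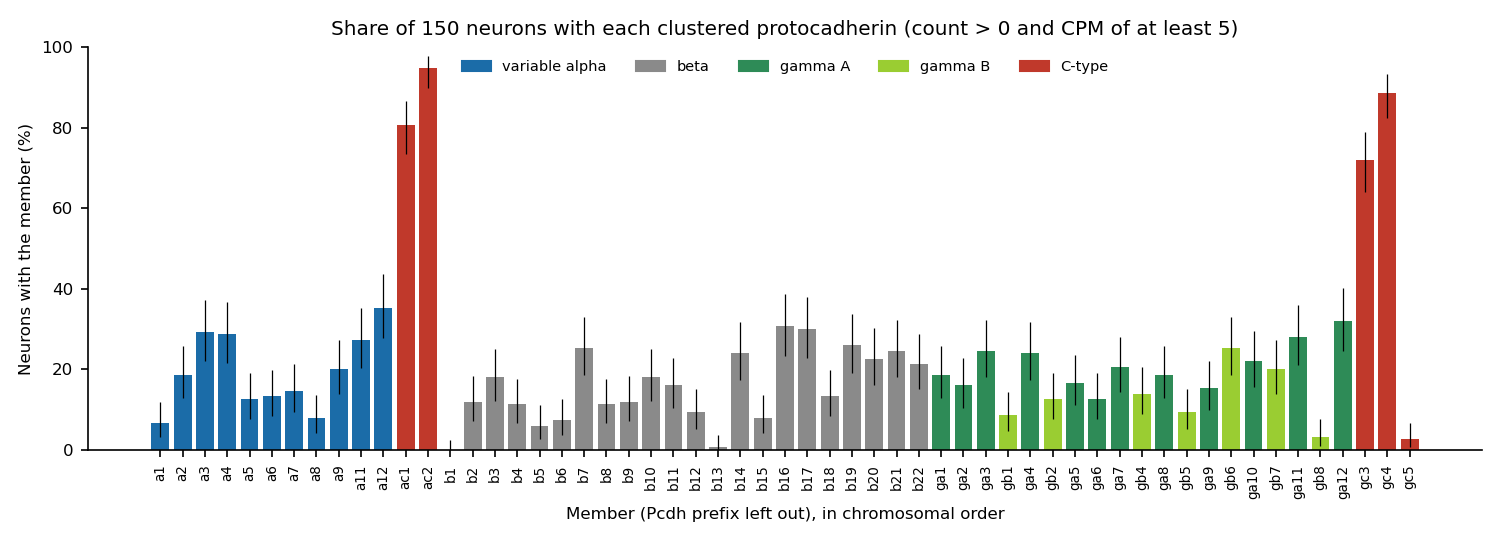
Share of 150 neurons with each member (bars, in percent) in chromosomal order, with exact Clopper-Pearson 95% intervals that cover counting error only. The variable members stay at or below 35.3%, whereas Pcdhac1, Pcdhac2, Pcdhgc3 and Pcdhgc4 reach 72% to 94.7% and Pcdhgc5 stands at 2.67%.

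A neuron that used a variable alpha member used it strongly. Per kilobase of exons, and in the neurons that had it, the median level of a variable alpha member was 8.80 CPM per kb (median over the 11 members, range 2.78 to 12.3). The same quantity was 3.35 for the 21 detected beta members (range 1.75 to 20.6), 3.34 for gamma A members and 2.24 for gamma B members. In each neuron with at least 10 summed variable alpha counts, the leading variable alpha member held a median of 63% of them (64.6% per exonic kb), and over 50% in 125 of 144 such neurons. The leading beta member held a median of 48.9%, and the leading variable gamma member 44%. The effective number of members, the inverse of the summed squared shares, had a median of 1.91 for variable alpha, 3.02 for beta and 3.05 for variable gamma. The member in the lead varied: 10 different variable alpha members led in at least 1 neuron, Pcdha3 most often (26 neurons), and 19 beta and 19 variable gamma members did so.

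Hardly any neurons shared a combination. Of 150 neurons, 148 had a set of variable members found in no other, and the remaining 2 had none. In the 144 neurons with at least 10000 detected genes all 144 sets differed. Variable alpha sets alone repeated: 75 different sets were seen, and the most common, Pcdha3 with Pcdha4, occurred in 8 neurons. Beta sets alone were unique in 129 of the 144. With 52 variable members nearly all sets can differ even where members are present independently of each other. The number expected in that case was not computed, so the count of different sets is a description only. These sets used the rule of at least 5 CPM, and many members lay near it.

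The overlap between a pair of neurons was low within groups and between groups. The mean Jaccard index of variable sets (members in common divided by members in either) was 0.115 over all pairs. It was 0.118 for pairs of the same expression cluster (defined below) and 0.114 for pairs of different clusters. Pairs of 1 litter gave 0.117 and pairs of different litters 0.114, and pairs of 1 skin type 0.116 against 0.113. C-type sets, in contrast, had a mean index of 0.724. The most common C-type set, Pcdhac1, Pcdhac2, Pcdhgc3 and Pcdhgc4 together, was that of 74 neurons.

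Few pairs of variable members went together. The phi coefficient (the correlation of presence over the 144 neurons) had a median of -0.006 over 1128 pairs of variable members, with quartiles at -0.065 and 0.058. The highest was 0.40, for Pcdhb16 and Pcdhb17, which 26 neurons had in common out of 44 and 45 neurons with each. Pcdhb21 and Pcdhb22 followed with 0.35, but their gene models overlap. Pcdhgb5 and Pcdhgb6 had 0.34, with 10 neurons in common. At the other end, Pcdha2 and Pcdha7 were never found together, in 28 and 21 neurons (phi -0.20). These pairs were picked from the ends of the range and are descriptions. Neighbouring beta members had a median phi of 0.064 (16 pairs), against -0.010 for the other beta pairs, -0.041 for neighbouring alpha members and 0.006 for neighbouring gamma members. In these 144 neurons the number of members went with the number of detected genes (Pearson's r 0.417). The part of library quality in the phi coefficients was not tested.

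Apart from Pcdhgc5, C-type members were present in far more neurons than any variable member. Pcdhac2 was detected in 142 of 150 neurons (94.7%), Pcdhgc4 in 133 (88.7%), Pcdhac1 in 121 (80.7%) and Pcdhgc3 in 108 (72%). Pcdhgc5 was the exception, with 4 neurons (2.67%) and no level above 8.24 CPM. Per kilobase of exons, and in the neurons that had them, the median levels were 35.8 CPM per kb for Pcdhac2, 17.2 for Pcdhac1, 9.31 for Pcdhgc4, 3.32 for Pcdhgc3 and 0.909 for Pcdhgc5. In level Pcdhgc3 was thus close to the medians of beta (3.35) and gamma A members (3.34). Pcdhgc5 lay below every detected variable member, the lowest of which was Pcdhgb8 at 1.19. C-type members together held a median of 52.8% of the summed per-kb level of all 57 members (148 neurons with at least 10 member counts, range 0 to 84%).

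Levels of the alpha C-type members differed among kinds of neuron. The neurons were clustered on other genes, with the members left out, and cluster names rested on marker genes. Cluster 2 carried the markers of C-fibre low-threshold mechanoreceptors (Th, Tafa4, Slc17a8, Zfp521, P2ry1, Cdh9, Gfra2), slow touch neurons of hairy skin. Clusters 3 and 6 carried those of peptidergic nociceptors, such as Calca, Tac1 and Trpv1, with Mrgpra3 and Mrgpra1 among the leading genes of cluster 3 and Sstr2, Nxf3 and Acta2 leading cluster 6. Clusters 4, 7 and 8 carried those of A-fibre low-threshold mechanoreceptors, fast touch neurons: Mafa and Maf in cluster 4, Ntrk2 and Necab2 in cluster 7, Ntrk3 and Pvalb in cluster 8. Cluster 8 was led by Cckar and Runx3, and Runx3 also marks proprioceptors, so these clusters are compared by number. Haemoglobin genes stood among the leading genes of cluster 4. Clusters 1 and 5 had no name by these markers.

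Pcdhac1 was near 0 in the median neuron of clusters 2 and 3. Its median was 2.11 CPM in the 21 neurons of cluster 2 and 1.35 CPM in the 13 of cluster 3, then 13.1 in cluster 6, 28 in cluster 8, 80 in cluster 4, 88 in cluster 7, 188 in cluster 5 and 203 in cluster 1. It was detected in 8 of 21 neurons of cluster 2 and 6 of 13 of cluster 3, but in 15 of 15 of cluster 7. Over litters with at least 2 cells in the cluster, the mean level of Pcdhac1 was 9.96 ± 12.4 CPM (SD, n = 5) in cluster 2, 44.7 ± 61.8 (n = 3) in cluster 3, 78 ± 53.5 (n = 5) in cluster 4, 185 ± 67.1 (n = 5) in cluster 5 and 189 ± 26.1 (n = 7) in cluster 1. In this order the neighbours overlap within their spread, whereas all litter means of clusters 1 (161 to 224 CPM) and 5 (107 to 266) lay above all of cluster 2 (0 to 30.7).

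Pcdhac2 kept nearly the same order. Its median was 35.1 CPM in cluster 2, 73 in cluster 3, 100.1 in cluster 6, 139 in cluster 8, 192 in cluster 4, 284 in cluster 1, 304 in cluster 7 and 310 in cluster 5. Unlike Pcdhac1 it was detected in at least 90.5% of the neurons of every cluster, so it differed in level and hardly in presence. The levels of Pcdhac1 and Pcdhac2 went together over the 150 neurons (Spearman's rho 0.789, Pearson's r 0.714), which share library, depth and the constant exons of the array. Each also went with Nefh, the heavy neurofilament of large myelinated neurons, with a rho of 0.679 for Pcdhac1 and 0.710 for Pcdhac2. For the summed variable alpha members against the summed alpha C-type members rho was 0.106, although these too share constant exons.

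The cluster medians of the gamma C-type members ran nearly the other way, over a smaller range. Clusters 2, 3 and 6, the lowest in Pcdhac1 and Pcdhac2, had the highest medians of both. The median of Pcdhgc4 was 58.8 CPM in cluster 2, 59.9 in cluster 6 and 81 in cluster 3, and from 35.6 in cluster 5 to 47.2 in cluster 7 among the others. That of Pcdhgc3 was 18.5 CPM in cluster 2, 19.9 in cluster 3 and 25 in cluster 6, and from 5.83 in cluster 5 to 17 in cluster 8 among the others. Their rho with Nefh was -0.139 for Pcdhgc4 and -0.122 for Pcdhgc3 over 150 neurons, and -0.235 and -0.208 over the 144 neurons with at least 10000 detected genes. With each other it was 0.0440 and, over the 144 neurons, -0.033. Markers of other cell types moved with 2 of these genes over the 150 neurons. For Pcdhac1 rho was -0.328 with the summed fibroblast markers, -0.249 with satellite glia markers and -0.226 with Schwann cell markers. For Pcdhgc3 it was 0.178, 0.199 and 0.134. Their part in these levels was not tested.

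**Figure D3:**
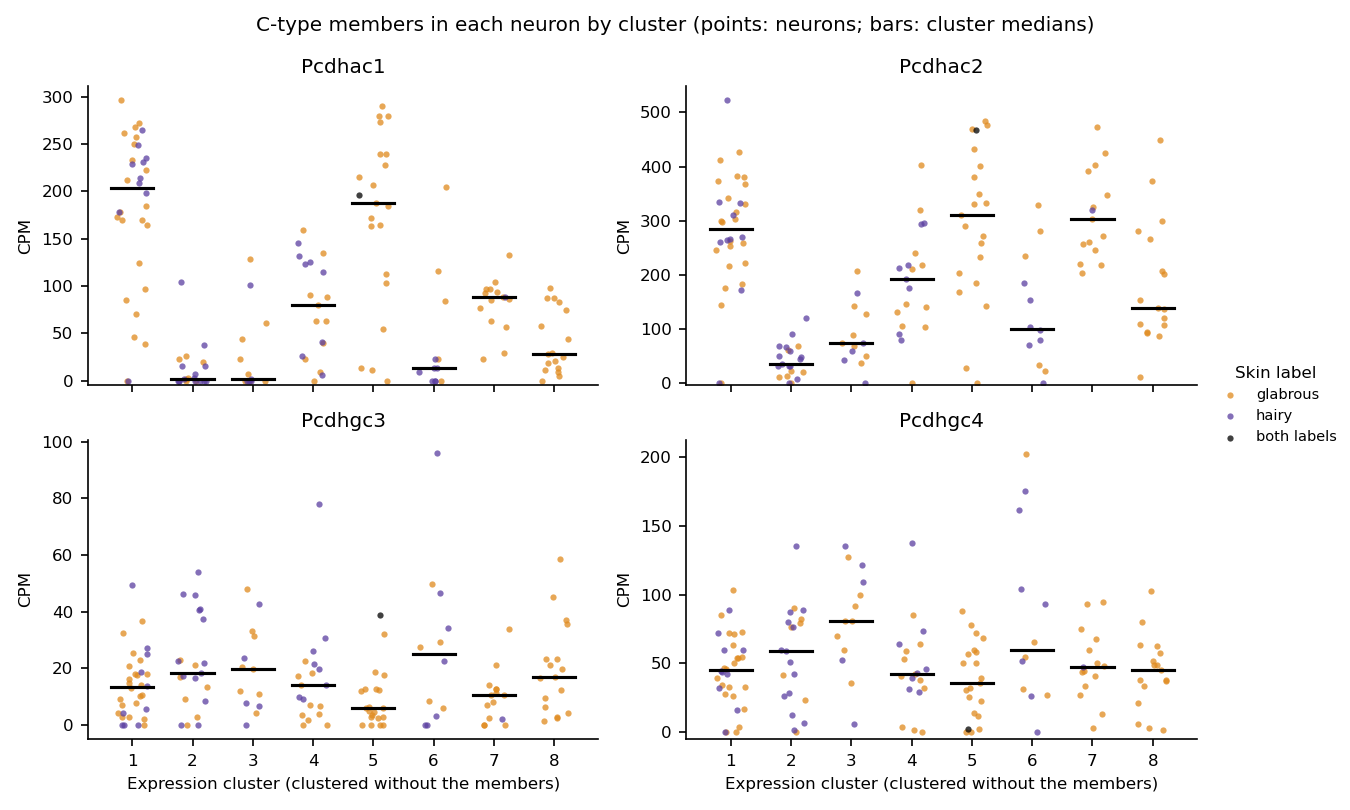
Level (CPM, linear axis) of Pcdhac1, Pcdhac2, Pcdhgc3 and Pcdhgc4 in each of 150 neurons (points, coloured by skin label) by expression cluster, with cluster medians as bars. Pcdhac1 and Pcdhac2 are low in clusters 2, 3 and 6 and high in clusters 1 and 5, and the medians of Pcdhgc3 and Pcdhgc4 differ less.

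The frequency of members also varied between clusters. The share of neurons with Pcdhac1 ran from 38.1% to 100%, the widest range of any member, that with Pcdhgc3 from 52.4% to 84.6% and that with Pcdhgc4 from 81% to 100%. Among variable members Pcdhb20 (4.76% to 60%) and Pcdhb4 (0% to 46.2%) had the widest ranges, and both were picked for that. The share of neurons with Pcdha12 ran from 8.33% in cluster 6 to 52.9% in cluster 8, that with Pcdha3 from 16.7% to 46.7%, that with Pcdhb16 from 19% to 58.8% and that with Pcdhga12 from 26.3% to 42.9%. Clusters hold 12 to 32 neurons, so a share moves by several percent with each neuron. In the 144 neurons with at least 10000 detected genes, the median range over clusters was 30 percentage points for variable alpha members. It was 26.3 for beta, 27.2 for gamma A and 25 for gamma B members. The part of counting error in these ranges was not tested. All of Pcdha12, Pcdha3, Pcdhb16 and Pcdhb17 were found in all 10 litters.

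Clusters 4, 7 and 8 were then compared with clusters 3 and 6 in litter sums, for the 6 litters with at least 2 neurons of each (43 and 22 neurons). The question was whether neurons with touch markers and neurons with nociceptor markers differ in their members. Pcdhac2 was lower in clusters 3 and 6, Pcdhgc4 was higher, and so was Pcdhb4. These 3 members passed of 25 tested (edgeR quasi-likelihood test with litter as a block, Benjamini-Hochberg over all genes), beside 17.6% of all 12458 genes tested (7.78% higher and 9.84% lower in clusters 3 and 6). The share of called members was thus below the background of this comparison.

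Pcdhac2 (chr18:37143503-37187657) stood at 234 CPM in litter E_F_G, 204 in H, 174 in I, 256 in L, 343 in O and 223 in P_Q in clusters 4, 7 and 8. In clusters 3 and 6 of the same litters it stood at 133, 70.3, 31, 88.3, 66.9 and 124 CPM. The lowest sum of the first clusters lay above the highest of the second, so they did not overlap. The mean was 239 ± 57.9 against 85.5 ± 38.1 CPM (SD, n = 6), a log2 change of -1.56 ± 0.25 (SE) with an edgeR adjusted p of 0.00444, lower in 6 of 6 litters. The change was -1.61 within plate 1 and -1.52 within plate 2 (3 litters each, edgeR adjusted p 0.0615 and 0.109), and -1.42 in glabrous neurons alone (adjusted p 0.116), where the call was lost in each case.

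Pcdhac1 (chr18:37090013-37187657) was lower in 6 of 6 litters as well and did not pass. It stood at 52.6, 61.7, 52.1, 35.6, 81.6 and 64.8 CPM in clusters 4, 7 and 8 (litters E_F_G, H, I, L, O and P_Q) and at 37.2, 19, 27.9, 0, 0 and 52.9 in clusters 3 and 6. The sums overlapped between the clusters, and they spread far more in clusters 3 and 6. The log2 change was -1.84 ± 0.82 (SE) with an edgeR adjusted p of 0.165. Without cluster 8, an alternative chosen after the data had been seen, the change was -1.08 in 4 litters and passed (adjusted p 0.0362).

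Pcdhgc4 (chr18:37815079-37841873) was the C-type member that went the other way. Its sums in clusters 4, 7 and 8 were 51.4, 50.3, 45.4, 58.4, 14.9 and 51.7 CPM in litters E_F_G, H, I, L, O and P_Q, and 72.8, 54.8, 90.4, 149, 55 and 79.4 in clusters 3 and 6. It was higher in clusters 3 and 6 in 6 of 6 litters, with overlap between litters. The mean rose from 45.3 ± 15.5 to 83.5 ± 34.9 CPM (SD, n = 6), a log2 change of 0.91 ± 0.24 (SE) with an edgeR adjusted p of 0.0324. The call ended without litter E_F_G, I, L, O or P_Q (adjusted p 0.0510 to 0.0827 in these 5 fits) and without cluster 8 (0.51, adjusted p 0.189). Pcdhgc3 had a log2 change of 0.60 ± 0.30 (SE) and an edgeR adjusted p of 0.217.

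Pcdhb4 (chr18:37307455-37311172), a beta member found in 17 of 150 neurons, rested on few counts. In clusters 4, 7 and 8 the sums held 4, 0, 2, 0, 19 and 0 counts of Pcdhb4 (litters E_F_G, H, I, L, O and P_Q), and in clusters 3 and 6 they held 18, 24, 11, 0, 22 and 57. It was higher in 5 of 6 litters, with overlap between litters, and 0 on both sides in litter L. The mean was 1.57 ± 3.58 against 8.40 ± 7.07 CPM (SD, n = 6). The edgeR adjusted p was 0.0354, and the fitted log2 change of 3.95 ± 1.02 (SE) depends on the sums at 0. The call ended without litter E_F_G, H, I or P_Q (adjusted p 0.0772 to 0.0953). Per gene, 22 of the 25 tested members did not pass, including all variable alpha and variable gamma members tested.

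Skin label and non-neuronal markers moved with this comparison. Clusters 4, 7 and 8 held 11, 14 and 17 glabrous and 8, 1 and 0 hairy neurons, whereas clusters 3 and 6 held 8 and 5 glabrous and 5 and 7 hairy neurons. Satellite glia markers summed to a median of 2041 CPM (range 19.2 to 11849) in clusters 4, 7 and 8 and to 485 CPM (26.1 to 15659) in clusters 3 and 6. Schwann cell markers stood at 1995 (659 to 9797) and 3003 CPM (1017 to 38795), and fibroblast markers at 173 (2.84 to 9723) and 491 CPM (0 to 18715). Pan-neuronal markers stood at 9265 (825 to 11193) and 8013 CPM (127 to 10924), so libraries low in them lay on both sides. The part of skin label and of all these markers in these differences was not tested.

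A comparison of clusters 4, 7 and 8 with cluster 2 was added after the levels had been seen (4 litters, 22 and 13 neurons). Pcdhac2 was the only member called of 25 tested, beside 11% of all genes (4.85% higher and 6.1% lower in cluster 2). It stood at 174, 256, 343 and 223 CPM in clusters 4, 7 and 8 (litters I, L, O and P_Q) and at 17.3, 27.9, 39.5 and 41.9 CPM in cluster 2, with no overlap. The log2 change was -2.99 ± 0.23 (SE), lower in 4 of 4 litters, with an edgeR adjusted p of 0.00151. Without cluster 8 the change was -2.95 in 2 litters (adjusted p 0.0502). Pcdhac1 stood at 52.1, 35.6, 81.6 and 64.8 CPM against 9.05, 0, 0.790 and 28 CPM, also without overlap, with a log2 change of -3.39 ± 0.93 (SE) and an edgeR adjusted p of 0.0638. The cluster was chosen for its low levels, so these values describe it and support nothing further.

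**Figure D4:**
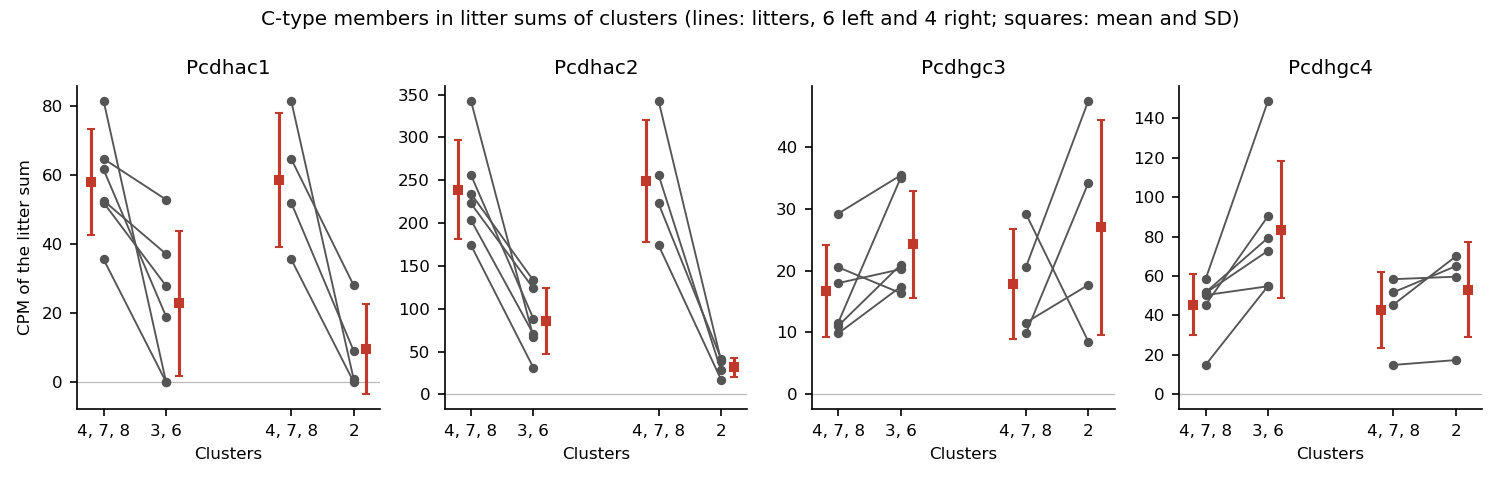
Level (CPM of the litter sum, linear axis) of Pcdhac1, Pcdhac2, Pcdhgc3 and Pcdhgc4 in clusters 4, 7 and 8 against clusters 3 and 6 (6 litters, left) and against cluster 2 (4 litters, right), with lines joining a litter and squares for the mean and SD. Every line of Pcdhac1 and Pcdhac2 falls, and every line of Pcdhgc4 rises.

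The number of members per neuron was a little lower in clusters 3 and 6 and did not pass the test. Over the 6 litters the mean was 13.2 ± 1.38 members in clusters 4, 7 and 8 and 11.4 ± 2.05 in clusters 3 and 6 (SD, n = 6), a difference of -1.89, lower in 5 litters and equal in 1. The exact two-sided sign-flip permutation test gave p = 0.0625, the smallest value it can give with 1 tie, and 0.312 after adjustment over the 5 measures. Variable alpha members numbered 2.08 ± 0.39 and 1.81 ± 0.78, beta members 3.61 ± 0.64 and 3.14 ± 1.15, variable gamma members 3.95 ± 0.84 and 3.36 ± 0.68, and C-type members 3.6 ± 0.28 and 3.04 ± 0.65. With a CPM of at least 20 the difference in all members turned to 0.18. Over the litters left out it ran from -2.27 to -0.94. In litter O the means were 14.7 in 3 neurons of clusters 4, 7 and 8 and 8 in 2 neurons of clusters 3 and 6. Over all their neurons, clusters 4, 7 and 8 had a median of 14370 detected genes and clusters 3 and 6 one of 13303. The part of detected genes in the difference was not tested.

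Skin label was compared within the 7 litters that held at least 2 neurons of each type (68 glabrous and 37 hairy neurons). The number of members was 12.1 ± 1.5 per glabrous and 12.5 ± 2.15 per hairy neuron (SD over litter means, n = 7). The difference of 0.45 was smaller than the spread over litters (exact two-sided sign-flip permutation test, p = 0.625, adjusted p = 0.75, smallest possible 0.0156), and it changed sign under 6 alternatives. Variable alpha members numbered 2.06 ± 0.33 and 2.18 ± 0.76, variable gamma members 3.38 ± 0.52 and 3.26 ± 0.54, and C-type members 3.42 ± 0.52 and 3.17 ± 0.35. Beta members had the smallest p, with 3.19 ± 0.75 per glabrous and 3.89 ± 1.08 per hairy neuron, higher in hairy neurons in 5 of 7 litters (exact sign-flip permutation p = 0.109, adjusted p = 0.547).

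Litter means show where the spread came from. In litter E_F_G, 5 hairy neurons had 16.8 members each against 13.1 in 31 glabrous neurons. In litter L, 5 hairy neurons had 12.8 against 9.67 in 3 glabrous ones, of which 1 had fewer than 10000 detected genes. In litters H, O and P_Q glabrous neurons had more, with 11.6 against 10, 14.2 against 12.2 and 13 against 10.9. Litters C_D (11.1 and 12) and K (11.7 and 12.8) went with the first pair. The groups overlapped, apart from hairy neurons of E_F_G above all glabrous litters and glabrous neurons of L below all hairy ones.

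**Figure D5:**
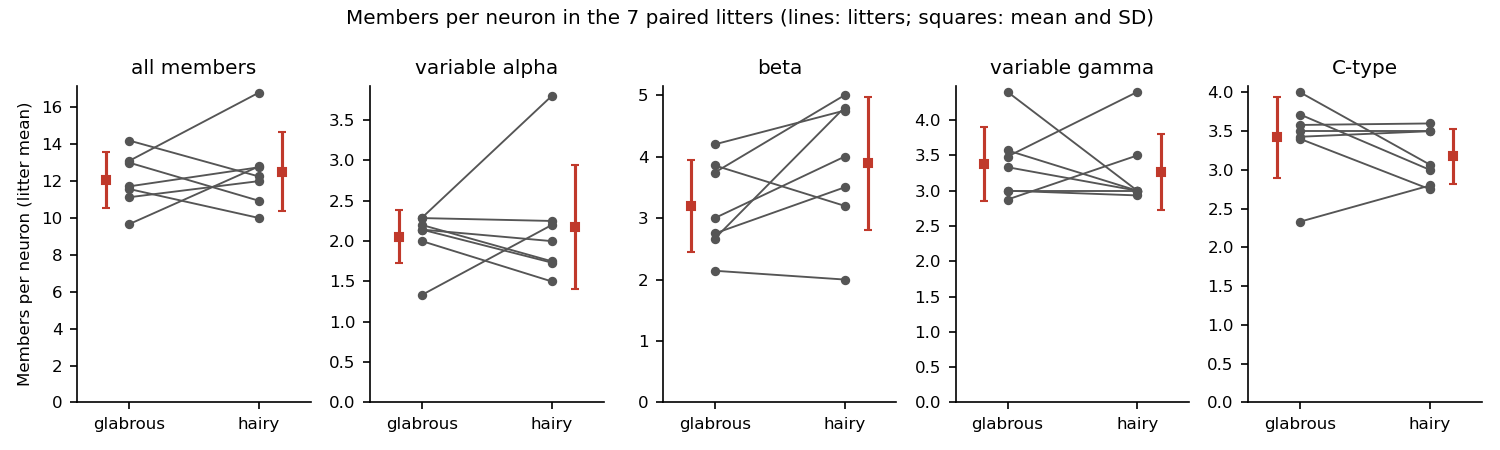
Mean number of members per neuron (vertical axes) in glabrous and hairy neurons of the 7 paired litters, for all members and each kind, with lines joining a litter and squares for the mean and SD. Lines run both ways in every panel, and the glabrous and hairy values overlap.

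No member differed between skin types by the main test. Of 57 members 32 could be tested and 0 were called by edgeR (Benjamini-Hochberg over 12852 genes, litter as a block), beside 0.0934% of all genes (0.0389% higher and 0.0545% lower in hairy neurons). At an unadjusted p under 0.05 there were 3 (Pcdhac2, Pcdha7 and Pcdha2), beside 9.94% of all genes, and DESeq2 called 2, Pcdhac2 and Pcdha2. In simulated sums of this comparison, changes were put into genes drawn from all 12852 tested. There edgeR recovered 29.9% of changes of 1 log2 unit and 80.6% of 2, so changes of the smaller size could be missed. Members were not simulated apart. These rates therefore do not tell how large a change could be missed in a member of few counts.

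Pcdhac2 had the smallest p. Its sum in glabrous neurons was 308 CPM in litter O, 283 in K, 268 in E_F_G, 247 in C_D, 233 in P_Q, 179 in L and 152 in H. In hairy neurons of the same litters, in that order, it was 88.5, 207, 102.1, 272, 137, 56.4 and 44.6 CPM. It was lower in hairy neurons in 6 of 7 litters, with overlap. The mean of Pcdhac2 was 239 ± 56 against 130 ± 82.9 CPM (SD, n = 7), a log2 change of -1.12 ± 0.26 (SE) with an edgeR adjusted p of 0.197. DESeq2 gave an adjusted p of 0.00514. The kinds of neuron differ between the skins (cluster 2 held 7 glabrous and 14 hairy neurons, cluster 8 held 17 and 0), and with litter and cluster in the model, an alternative chosen after the data had been seen, the change of Pcdhac2 was -0.41 (edgeR adjusted p 1.00). How far cluster makeup or skin accounts for the difference was not tested further.

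Pcdhac1 was lower in hairy neurons in 7 of 7 litters and did not pass. The mean was 107 ± 63.7 against 63.2 ± 50.1 CPM (SD, n = 7), a log2 change of -1.31 ± 0.59 (SE) with an edgeR adjusted p of 0.510. Within clusters the direction was mixed. The median of Pcdhac1 was higher in hairy neurons of clusters 1 (221 against 176 CPM in glabrous) and 4 (119 against 63.5). It was lower in hairy neurons of clusters 2 (0.785 against 2.43), 3 (0 against 15) and 6 (9.47 against 84.7). The part of cluster makeup in the difference of Pcdhac1 was not tested. Pcdha7 stood at 14.8 ± 10.1 against 3.44 ± 5.94 CPM and Pcdha2 at 6.14 ± 8.87 against 21.5 ± 13.1 CPM (edgeR adjusted p 0.399 and 0.480), with several sums at or near 0. Pcdhgc4 had a log2 change of 0.33 and Pcdhgc3 one of 0.57, both higher in hairy neurons in 6 of 7 litters and neither called (edgeR adjusted p 0.554 and 0.560). Schwann cell markers summed to a median of 2001 CPM in glabrous and 3109 CPM in hairy neurons (ranges 366 to 16474 and 1017 to 38795), and satellite glia markers to 941 and 1249 CPM (19.2 to 11849 and 33.8 to 15659), and fibroblast markers to 174 and 431 CPM (2.57 to 18715 and 0 to 11030). Their part in these values was not tested.

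Age was compared in glabrous neurons, between 7 litters of day 5 and the 2 litters of day 4. The number of members was 12.2 ± 1.64 at day 5 and 12.4 ± 0.91 at day 4 (SD over litters), and an exact two-sided permutation test gave p = 0.944 (smallest possible 0.0278). No kind of member passed: adjusted p was 0.833 or more for each. Of 51 members tested by edgeR 0 were called, beside 0% of all 15185 genes, with 3 at an unadjusted p under 0.05 (Pcdha8, Pcdhb2 and Pcdhgb4, all lower at day 4) beside 2.78% of all genes, and DESeq2 called 0. Pcdha8 had a mean of 1.51 CPM at day 5 and 0.193 at day 4, Pcdhb2 one of 1.26 and 0.0831, and Pcdhgb4 one of 2.62 and 0.468. The day 4 sums held 0 to 3 counts of each, and the day 5 sums 0 to 42 of Pcdha8, 2 to 21 of Pcdhb2 and 1 to 93 of Pcdhgb4. Both day 4 litters lay wholly or partly on plate 2, and most day 5 litters on plate 1, so plate moved with age and its part was not tested.

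Genes known to act on the arrays were read from a list of 22 chromatin and cohesin genes, of which 21 were measured. Ctcf and the cohesin subunits loop promoters to distant enhancers, and Dnmt3b and Smchd1 act in silencing the promoters. Between skin types 0 of 21 were called (edgeR adjusted p), with 3 at an unadjusted p under 0.05 beside 9.94% of all genes, and between ages 0, with 0 at an unadjusted p under 0.05 beside 2.78% of all genes. In clusters 3 and 6 against clusters 4, 7 and 8, 3 rose and 0 fell: Pds5b, a cohesin cofactor (log2 change 1.46 ± 0.21, edgeR adjusted p 0.00285), Smc3, a cohesin core subunit (0.89 ± 0.24, adjusted p 0.0362), and Ehmt2, a histone methyltransferase (0.88 ± 0.26, adjusted p 0.0471). These are 3 of 21, beside 7.78% of all genes higher and 9.84% lower. The median of the list was 0.57, against -0.03 over all genes tested. In cluster 2, 3 rose, namely the cohesin subunits Rad21 and Smc3 and the zinc finger gene Wiz (log2 changes 1.44, 1.06 and 1.08, edgeR adjusted p 0.0130, 0.0497 and 0.0376), beside 4.85% of all genes higher and 6.1% lower. The list median was 0.67 against -0.01 over all genes. Both comparisons share sums of clusters 4, 7 and 8. Unlike the members, the listed genes were not left out of the clustering, so these p-values describe the clusters and support nothing further. Dnmt3b itself was near 0, with means of 0.333 and 0.308 CPM in the first pair of groups.

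Partners and downstream genes were read from a list of 28, of which 27 were measured between clusters. Between skin types edgeR called 0 of 28, and 2 had an unadjusted p under 0.05, beside 9.94% of all genes, and between ages 0, with 0 at an unadjusted p under 0.05. In clusters 3 and 6, 7 of 27 rose and 3 fell by edgeR, beside 7.78% of all genes higher and 9.84% lower. Prkca, a protein kinase C, rose from 16.1 ± 1.62 to 114 ± 39.2 CPM (SD, n = 6, log2 change 2.8 ± 0.23 SE, edgeR adjusted p 0.000266). Cyfip2, a subunit of the WAVE complex that binds the tails of clustered protocadherins and drives actin branching, rose from 174 ± 41.2 to 416 ± 68.3 CPM (log2 change 1.29, adjusted p 0.00104). The WAVE subunits Wasf1 and Wasf2 moved apart, with Wasf1 falling from 109 ± 11.8 to 64.3 ± 4.58 CPM (log2 change -0.74, edgeR adjusted p 0.00503) and Wasf2 rising from 10.8 ± 5.46 to 28.9 ± 12.2 CPM (1.46, adjusted p 0.00564). The median of the list was 0.30 against -0.03 over all genes tested. Genes of this list were not left out of the clustering either, and Ret was also among the A-fibre markers used to name clusters. The p-values of both cluster comparisons thus describe the clusters only. In cluster 2, 3 rose and 0 fell: Cyfip2, Wasf2 and Abi1, a further WAVE subunit (log2 changes 1.2, 1.64 and 0.82, edgeR adjusted p 0.0349, 0.0399 and 0.0486), beside 4.85% of all genes higher and 6.1% lower.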

How the data were processed

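The deposited table holds estimated counts (whole numbers, 1 column per cell), made by the authors with FastQC, cutadapt, Salmon and mm10 per the submitters' processing notes. Tool versions, annotation and any length scaling are not stated there. No cells were removed, and no pair of cells had identical counts. Members and lists were chosen with earlier results of these data known. Gene models came from GENCODE M21. CPM are counts scaled to the total of the cell or sum.

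Cells were clustered without the members (scanpy 1.11.5, 2000 variable genes, 10 neighbours in 20 principal components, Leiden clustering at resolution 1 with igraph 0.11.9), and clusters were named from fixed marker lists (at least 3 markers, log2 enrichment over 1, at least 50% of cells). Doublets were not called, since each library is a labelled single cell.

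Replicates were litters with at least 2 cells per group. Numbers of members were compared by exact permutation tests over litters. Counts, whole as deposited, were summed and tested with edgeR 4.0.16 (R 4.3.3, limma 3.58.1; TMM, filterByExpr, quasi-likelihood F-test, litter as a block because it takes up age and, in all but 1 litter, plate) at a Benjamini-Hochberg adjusted p of 0.05. An SE is the log2 change over the square root of F. DESeq2 1.42.0, thinning and other thresholds were alternatives. Same-litter correlations of deviations ran from -0.080 to 0.265 between skin types and -0.033 to 0.316 between clusters 4, 7 and 8 and clusters 3 and 6. Intervals cover counting error only. The procedure was tested on simulated data. In the regulator and partner lists the genes with the smallest p were named, among members all C-type genes, the 2 most and 2 least frequent of each kind, those called and otherwise the 3 smallest p. Other software was Python 3.11.15, numpy 2.4.6, pandas 2.3.3 and scipy 1.17.1.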

Additional observations from a re-analysis of the deposited data

Results flagged for a closer look

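Of 53 groups of 4 to 10 litter values that were checked, 8 had a highest or lowest litter far from the others. Chance flags about 1 in 20 such groups. In hairy neurons litter E_F_G (5 neurons) stood apart in all members, with 16.8 per neuron against 12.8 in the next litter, in variable alpha members (3.8 against 2.25) and in variable gamma members (4.4 against 3.5). In glabrous neurons litter L (3 neurons) stood apart in C-type members, with 2.33 per neuron against 3.4 in the nearest litter, and in variable alpha members, with 1.33 against 2. In the age comparison, which uses the same neurons of litter L, these 2 values stood apart again, 2.33 against 3.29 and 1.33 against 2. Of these 3 neurons 1 had 1 member and 4957 detected genes. In clusters 4, 7 and 8 the sum of litter O (3 neurons) was low in Pcdhgc4, at 14.9 CPM against 45.4 in the nearest litter. Without litter O the change of Pcdhgc4 was 0.70 on the log2 scale (edgeR adjusted p 0.0510).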

How the results depend on the processing

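The mean number of members per neuron followed the detection rule: 18.8 with any count above 0, 7.18 with a CPM of at least 20 and 13.5 after thinning, against 12.4. The cause was not tested, except that each rule asks for a different count. For skin, the difference in all members turned negative with any count (-0.84), a CPM of at least 20 (-0.11), thinning (-0.10), cells of at least 10000 genes (-0.11) and without cluster 2 (-0.98), and ran from -0.091 (without litter E_F_G) to 0.87 over the litters left out. The cause was not tested. Variable alpha turned to -0.033 with a CPM of at least 20, to -0.23 without cluster 2 and ran from -0.11 to 0.22 without a litter, beta turned to -0.30 with any count, and variable gamma turned to 0.32 within plate 1 and ran from -0.29 to 0.095.

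For clusters 3 and 6 against 4, 7 and 8, all members turned to 0.18 with a CPM of at least 20. Variable alpha turned to 0.20 within plate 1, 0.014 in glabrous cells, 0.21 at a Leiden resolution of 0.5 and 0.15 without cluster 8, and ran from -0.39 to 0.041 without a litter. With a CPM of at least 20 beta turned to 0.29 and variable gamma to 0.20. Variable gamma also turned to 0.078 within plate 1 and 0.0375 without cluster 8, and C-type to 0.22 in glabrous cells.

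For day 4 against day 5, all members turned to -0.65 with cells of at least 10000 genes and -0.22 with sums of at least 1 cell, and ran from -0.30 to 0.46 without a litter. Variable alpha turned to -0.038 with any count. Beta turned to -0.045 with a CPM of at least 20, -0.020 with cells of at least 10000 genes and -0.14 with at least 1 cell, and variable gamma to 0.23 with a CPM of at least 20. Without litter K, which leaves a lone day 4 litter assumed to vary like the others, Pcdhac1 turned to -0.0020 (from 0.67) and Pcdhgc3 to 0.035, and without P_Q Pcdhgc4 turned to -0.40. Over the litters left out they ran from -0.0020 to 1.14, from -0.66 to 0.035 and from -0.40 to 0.52.

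Members called between skins numbered 0, but 2 by DESeq2 and 5 with no filter on low counts, and 0 in each of 7 fits without a litter and with no replicate block. Between clusters 3 and 6 and clusters 4, 7 and 8 they numbered 3, but 5 by DESeq2, 13 with no filter, 1 with no replicate block, 0 within plate 1, 0 within plate 2, 0 in glabrous cells, and 1 to 3 without a litter (1 without E_F_G, I or P_Q). Fewer litters enter the plate and glabrous fits. Pcdhac2 was called in every fit but those 3. For cluster 2 they numbered 1, but 5 by DESeq2, 8 with no filter, 3 with sums of at least 1 cell and 0 without cluster 8 (2 litters). There Pcdhgc4 turned to -0.058 with at least 1 cell, and Pcdhgc3 to -0.21 without cluster 8 and ran from -0.0094 to 1.18 without a litter. No fit within plate 1 or in glabrous cells was possible for cluster 2, since too few litters held both groups. Depth limits members of a few counts per cell.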

Other observations

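The 1 neuron labelled with both skin types had 13 members, of which 3 were variable alpha, 2 beta, 5 variable gamma and 3 C-type members. Its level of Pcdhac1 was 197 CPM.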
